A study of Arabidopsis thaliana with 12 samples.

Results

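Flower buds of the scion were compared with flower buds of the rootstock in homografted Arabidopsis thaliana plants of the ecotype Col-0, in which the upper stem of a plant is cut and joined again to its own lower stem. Scion flower buds (3 arrays) and rootstock flower buds (3 arrays) make up 6 of the 12 ATH1 arrays of the series, chosen by their tissue label, and the other 6 hold scion leaves (3) and rootstock leaves (3) from the same kind of grafts. All plants had the same genotype and were grafted, and none received another treatment. The buds were unopened and had newly emerged on side branches above the graft (scion) or below it (rootstock). The groups thus come from different heights of the stem, and with no array from ungrafted stems the effect of position and that of grafting cannot be told apart. The stage of the buds is not given in the sources used here.

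A grafted stem rebuilds its vascular strands across the cut, and until then water and long-distance signals reach the tissue above it poorly. The study sampled the buds later than the time it gives for vascular connection, and it reports stem sections in which the strands were joined. Abscisic acid (ABA), the hormone of water shortage and of bud dormancy, is sensed by soluble receptors that bind and block type 2C phosphatases, which frees SnRK2 kinases to activate transcription factors and protective proteins. Unopened flower buds of Arabidopsis hold anthers in different stages, in which a nurse tissue, the tapetum, first feeds the meiotic cells, then builds the outer pollen wall and at its death coats the grains with lipids and oleosin-like proteins.

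All 22746 probe sets that are no hybridization control were tested with limma. Calls needed a p of 0.05 or less after Benjamini-Hochberg adjustment, together with a difference of 2-fold or more. The deposited values are log2 values set to a median of 0 over the 12 arrays for each probe set, so they give differences between arrays but no expression level. Values of single arrays below are on this relative log2 scale, and those of replicates 1, 2 and 3 are always given in that order. Every difference is scion minus rootstock on the log2 scale, with the SE of the fit and n = 3 arrays per group. That SE pools the spread within all 4 groups, so the leaf arrays enter it too. The study's methods describe 3 grafted plants, chosen for the best scion growth, and independent biological replicates, with scion and rootstock tissue harvested at the same time. No source says that arrays of the same number came from the same plant.

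The bulk of the transcriptome differed little between scion and rootstock flower buds. The median difference was -0.04, the middle 50% of probe sets lay between -0.19 and 0.14, and 10005 of 22746 (44.0%) were higher in the scion. The large differences were mostly increases. At least 2-fold differences numbered 644 upward and 170 downward, at least 4-fold differences 112 and 8, and at least 8-fold differences 22 and 0. Of these, 54 increases (0.237% of the probe sets) and 36 decreases (0.158%) passed the test, with increases of 2.03-fold to 20.0-fold and decreases of 2.02-fold to 4.85-fold. In the at least 2-fold differences, scion replicate 1 lay farthest from the rootstock in 513 increases (79.7%) and 125 decreases (73.5%). Without that array, 360 of the 644 increases and 108 of the 170 decreases stayed at least 2-fold. At an unadjusted p of at most 0.05, 1348 probe sets were higher and 1158 lower. The 3 scion arrays lay above the 3 rootstock arrays in 2519 probe sets (11.1%) and below them in 3216 (14.1%), and they did not overlap in any of the 90 called ones. The study's own text names 16 of the 90 called genes.

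**Figure D1:**
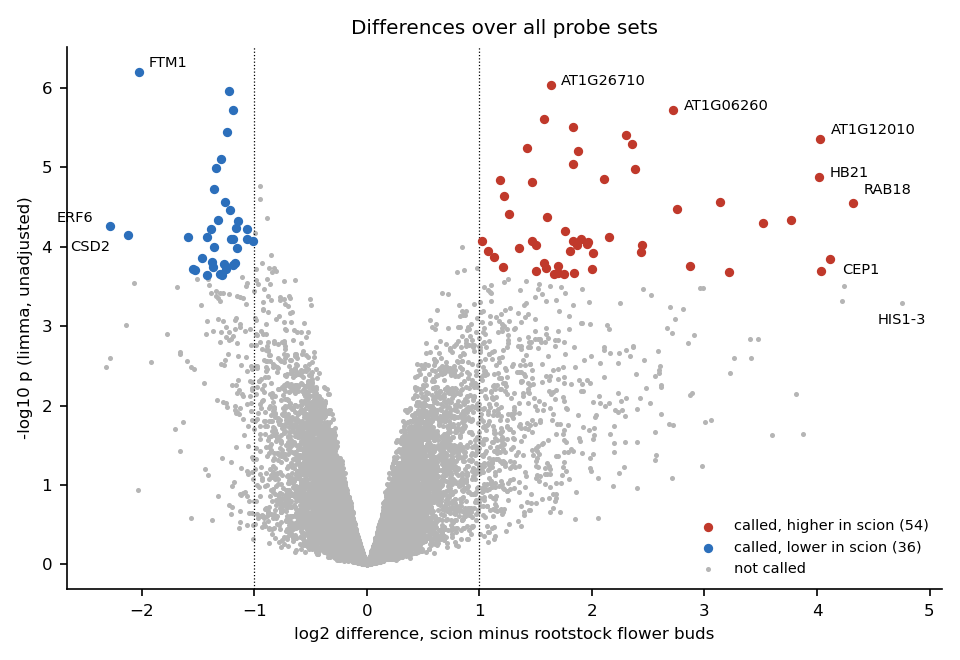
Each point is a probe set, with the log2 difference between scion and rootstock flower buds on the x axis and the -log10 of the unadjusted limma p on the y axis. Differences run from -2.31 to 4.76, and the largest difference, that of HIS1-3, was not called.

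The number of calls changed with single arrays. Refits that each left out 1 array are given by their own totals of increases and decreases, beside how many of the 90 calls they shared. They gave 14 and 4 without scion flower bud replicate 1 (18 shared), 219 and 67 without scion replicate 2 (86 shared), and 36 and 15 without scion replicate 3 (33 shared). They gave 0 and 0 without rootstock replicate 1, 2 and 2 without rootstock replicate 2 (4 shared), and 40 and 41 without rootstock replicate 3 (44 shared). Leaf arrays share the estimate of the spread, and the totals were 16 and 8, 50 and 34, and 69 and 43 without scion leaf replicates 1, 2 and 3, and 26 and 19, 29 and 18, and 35 and 28 without rootstock leaf replicates 1, 2 and 3. A fit of the 6 flower bud arrays alone called 56 increases and 38 decreases, and 51 of the 90 calls were among them. No call was made in all 12 fits that leave out 1 array, and 15 were made in at least 10 of them. The most stable, in 11 fits each, were FTM1, LSH5, AT1G26710 and AT1G06260. Scion replicate 1 was the array farthest from the rootstock in 36 of the 54 increases (66.7%) and in 32 of the 36 decreases (88.9%), against 46.8% of all probe sets with a positive difference and 55.7% of those with a negative one. Without that array the 54 increases had differences of 1.00 to 3.67 and all stayed at least 2-fold, and 32 of the 36 decreases stayed at least 2-fold.

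Scion replicate 1 also carried the highest leaf signal. A share of leaf signal was computed over 143 probe sets. They were at least 3 higher on every rootstock leaf array than on every rootstock flower bud array. The share places each array between the mean of the rootstock flower bud arrays (no share) and that of the rootstock leaf arrays (full share). Its median was 10.6%, 0.743% and 1.89% on the scion flower bud arrays. On the rootstock flower bud arrays it was 0.027%, 0.043% and -0.09%. These lie near 0 by definition, so they do not measure leaf tissue in rootstock buds. The 4 measured genes of a list of 27 nuclear photosynthesis genes had median values of -0.22, -0.62 and -0.34 on the scion flower bud arrays and -0.73, -0.60 and -0.63 on the rootstock flower bud arrays. The 9 measured genes of floral organ identity had medians of 0.94, 0.46 and 0.39 on the scion and 0.24, 0.39 and 0.47 on the rootstock flower bud arrays. These were above all leaf arrays (-1.13 to -0.02). Over the 4 that the platform names, the medians were 0.00, 0.28 and 0.04 in scion buds and 0.13, 0.22 and 0.22 in rootstock buds. Rootstock leaves lay above rootstock flower buds in 28 of the 54 increases and 1 of the 36 decreases. They did so in 71.4% of all probe sets with a positive difference and 40.2% of those with a negative one. Among at least 2-fold differences they did so in 521 of 644 increases (80.9%) and 26 of 170 decreases (15.3%). With 479 probe sets removed whose mean was at least 3 higher in rootstock leaves than in rootstock flower buds, 47 increases and 36 decreases were called. The part of leaf tissue in each single increase was not tested.

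**Figure D2:**
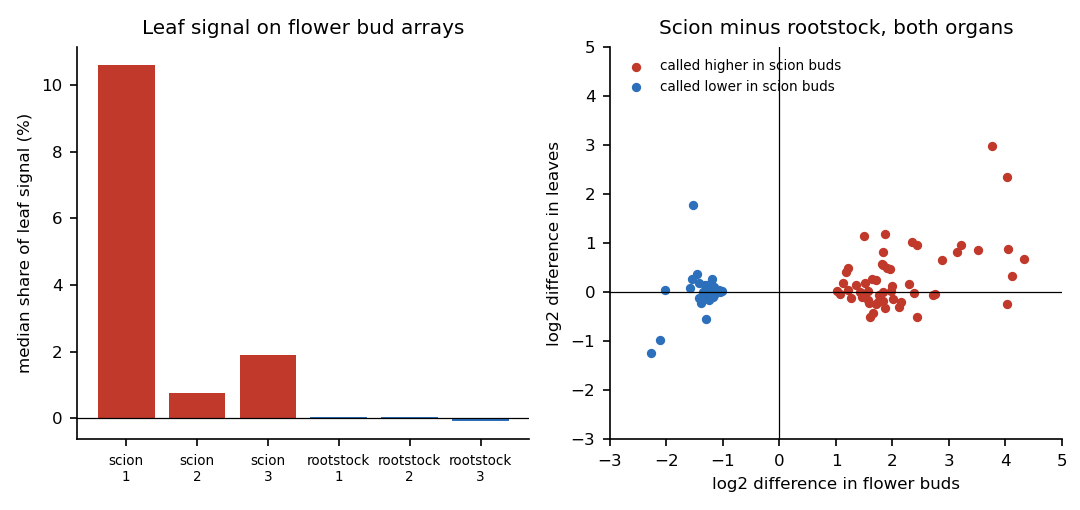
Left, median share of leaf signal over 143 leaf-high probe sets on each flower bud array, in percent (bars, 1 array each), with 10.6% on scion replicate 1. The mean of the rootstock flower bud arrays is the baseline of the share, so their bars lie near 0 by definition. Right, the 90 called probe sets by their log2 difference in flower buds (x axis), by which they were selected, and in leaves (y axis). For most, the leaf difference lies near 0.

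ABA signalling was represented among the increases by 3 genes, for phosphatases and a kinase. ABI2 and HAI2 encode type 2C phosphatases that hold the pathway back and are themselves induced by ABA, and OST1 encodes a SnRK2 kinase best known from guard cells. ABI2 stood at 1.11, -0.02 and 0.34 on the scion arrays, against -1.82, -1.75 and -1.91 on the rootstock arrays, and rose by 2.3 ± 0.26 (SE, adjusted p = 0.00987). HAI2 stood at 2.29, 0.44 and 1.34 in the scion, against -1.97, -2.14 and -2.38 in the rootstock, and rose by 3.52 ± 0.53 (SE, adjusted p = 0.0305). OST1 stood at 0.70, 0.23 and 0.24 in the scion and at -0.75, -0.72 and -0.93 in the rootstock, a rise of 1.18 ± 0.16 (SE, adjusted p = 0.0165). In each of these genes the rootstock arrays lay close together and scion replicate 1 was the highest. Each was still at least 2-fold higher without that array, by 1.99, 3.05 and 1.03. Only ABI2 kept its call there (adjusted p = 0.0239, against 0.121 for HAI2 and 0.0543 for OST1). Rootstock leaves exceeded rootstock flower buds by 1.75 in ABI2, 1.64 in HAI2 and 0.61 in OST1. Further phosphatase genes did not pass the test, with 1.59 ± 0.36 (SE, adjusted p = 0.0998) for ABI1 and 1.25 ± 0.28 (SE, adjusted p = 0.0953) for PP2CA, and neither did the transcription factor gene ABF3, with 1.39 ± 0.29 (SE, adjusted p = 0.0685). All 4 measured phosphatase genes of 9 listed were higher on every scion array than on every rootstock array, against 11.1% of all probe sets. All 6 of these genes carry their names here only through tables of the study, which selected genes by their change in the same arrays, so the shared direction is no independent evidence.

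Genes of proteins that protect drying tissue included the largest of the called increases. RAB18, an ABA-induced dehydrin, stood at 2.68, -0.28 and 1.70 in the scion, against -2.93, -2.86 and -3.08 in the rootstock, and rose by 4.32 ± 0.61 (SE, adjusted p = 0.0227). Rootstock leaves exceeded rootstock flower buds by 2.82 in this gene. LEA7, a late embryogenesis abundant (LEA) protein gene, stood at 4.44, 2.47 and 3.11 against -0.29, 0.06 and -1.05, a rise of 3.76 ± 0.57 (SE, adjusted p = 0.0298). M10, another LEA gene, stood at 2.45, 0.71 and 1.89 in the scion and at -0.24, -0.22 and -0.49 in the rootstock, a rise of 2.00 ± 0.36 (SE, adjusted p = 0.0481). The 3 genes shared the same order within the scion, with replicate 1 highest and replicate 2 lowest. Without scion replicate 1 none of the 3 kept its call, with an adjusted p of 0.0647 for RAB18, 0.103 for LEA7 and 0.152 for M10. Of 14 measured LEA genes, 3 rose, none fell and all 14 had a positive difference, with a median of 1.92 against -0.04 over all probe sets. The 9 members that the platform itself names had a median of 0.67, and 1 of them rose. LEA4-5 and LEA18, with 3.26 ± 0.83 (SE, adjusted p = 0.135) and 2.61 ± 0.75 (SE, adjusted p = 0.186), were not called. Scion replicate 1, at 3.78 and 4.68, lay above replicates 2 and 3, at 0.06 to 2.05.

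Of 12 measured drought and ABA target genes, RAB18 rose, none fell and 11 had a positive difference, with a median of 2.05 (0.67 over the 5 that the platform names). HIS1-3, a linker histone variant of drought, had the largest difference of all probe sets, 4.76 ± 0.96 (SE, adjusted p = 0.0667). Its values were 4.37, 1.90 and 2.77 in the scion and -1.15, -1.16 and -2.92 in the rootstock. The groups did not overlap, rootstock replicate 3 was the lowest array, and the gene was called in 1 of the 12 fits that leave out an array. Smaller increases in the same group were those of AT3G11930, a universal stress protein gene (2.01), and AT2G38905, a low temperature and salt responsive gene (1.75). AT2G47780, of the rubber elongation factor family, rose by 1.5. Including RAB18, LEA7 and M10, none of the 6 calls of the group was kept without scion replicate 1.

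**Figure D3:**
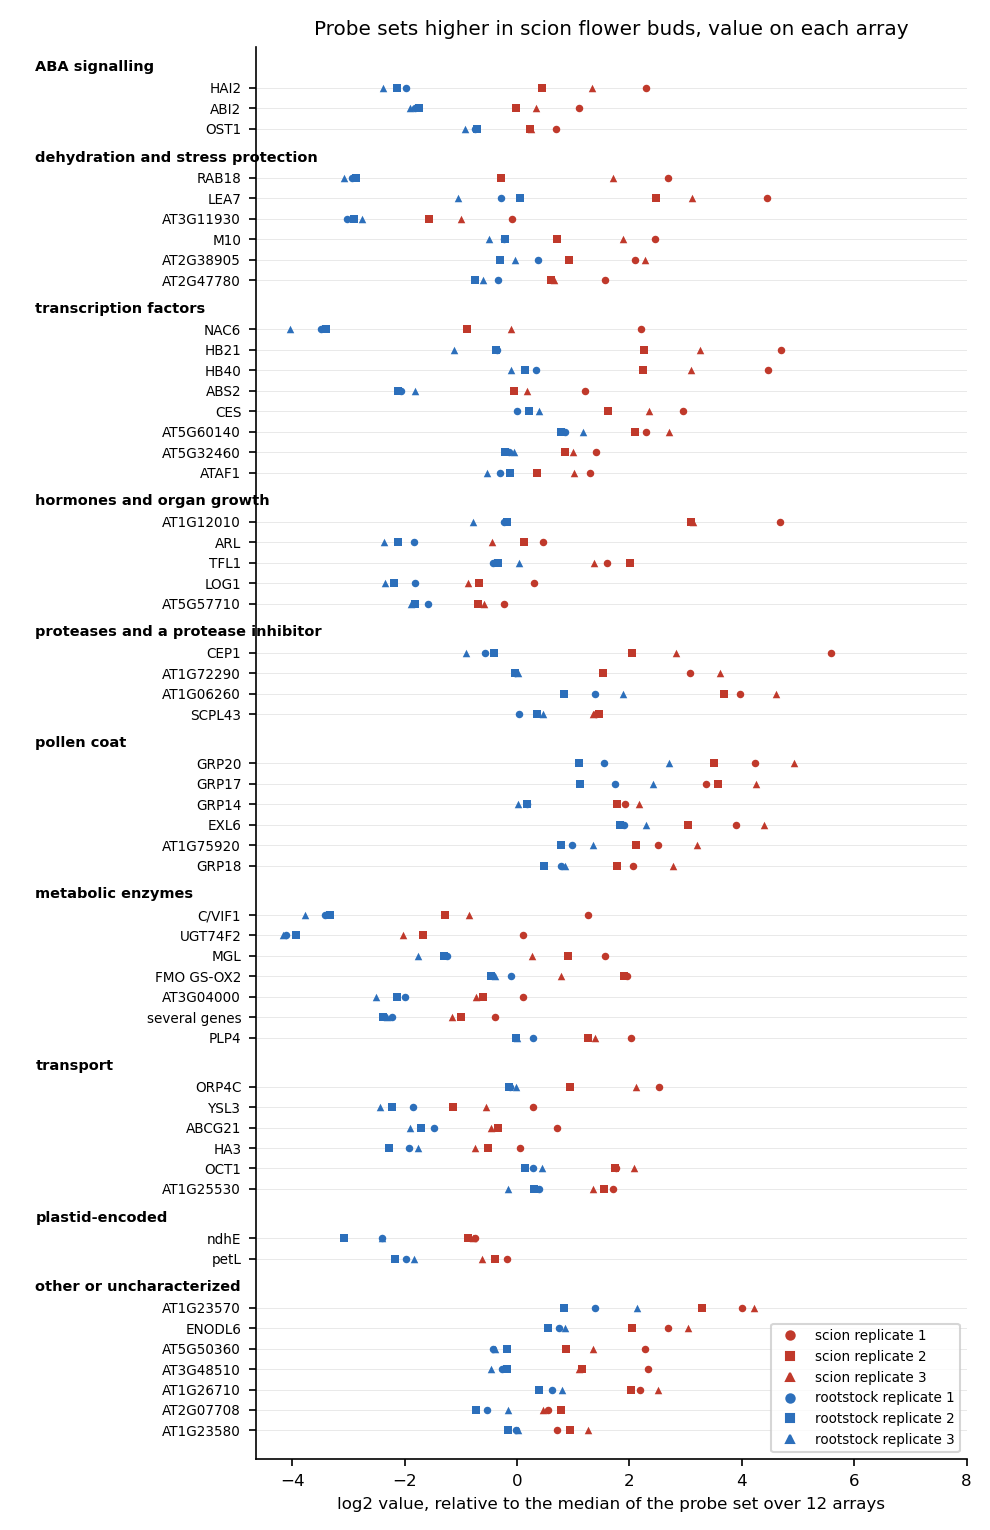
The 54 probe sets called as higher in scion flower buds, grouped by function, with the relative log2 value (x axis) of each of the 3 scion arrays (red) and the 3 rootstock arrays (blue). Red and blue never overlap within a row, and the red circle (scion replicate 1) is the rightmost point in 36 rows, while the red triangle (replicate 3) is rightmost in all 6 pollen coat rows.

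Transcription factors made up 8 of the 54 increases. HB21 and HB40 are class I homeodomain-leucine zipper (HD-Zip) factors, which with HB53 are known to act in axillary buds that are kept from growing out, upstream of ABA synthesis. HB21 stood at 4.69, 2.26 and 3.25 in the scion, against -0.36, -0.37 and -1.12 in the rootstock, and rose by 4.02 ± 0.53 (SE, adjusted p = 0.0165). HB40 stood at 4.47, 2.24 and 3.09 in the scion, against 0.33, 0.15 and -0.11 in the rootstock, and rose by 3.14 ± 0.45 (SE, adjusted p = 0.0227). Both genes moved alike on the 6 arrays, with a gap of 2.62 and 1.91 between the groups. HB53 had 1.90 ± 0.42 (SE, adjusted p = 0.0902), and the drought-responsive HB-12 and HB-7 had 2.71 ± 0.62 (SE, adjusted p = 0.0988) and 3.41 ± 0.80 (SE, adjusted p = 0.109). Of 7 measured homeobox genes matched by the symbol HB and a number, 2 rose and none fell. The tables of the study name 6 of them, and the 1 named by the platform, PHV, a factor of leaf polarity, had a difference of 0.01.

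NAC6, known as a promoter of leaf senescence, stood at 2.2, -0.89 and -0.11 in the scion and at -3.48, -3.39 and -4.04 in the rootstock, and rose by 4.04 ± 0.73 (SE, adjusted p = 0.0481). Rootstock leaves exceeded rootstock flower buds by 3.65 in this gene, and without scion replicate 1 the difference was 3.14 (adjusted p = 0.121). ATAF1, an ABA- and wound-responsive NAC gene, rose by 1.21 ± 0.21 (SE, adjusted p = 0.0481). All 9 measured NAC genes had a positive difference and 8 had no overlap between the groups, against 44.0% and 11.1% of all probe sets. But 8 of the 9 are named only by tables of the study. Beyond these families, the B3 factor gene ABS2 rose by 2.44, CES, a basic helix-loop-helix factor of brassinosteroid response, by 2.11, and the B3 genes AT5G60140 and AT5G32460 by 1.43 and 1.22. CES had the values 2.96, 1.62 and 2.35 in the scion and 0.00, 0.21 and 0.39 in the rootstock. In leaves the difference was -0.30 for CES and 0.01 for AT5G60140.

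Of the ethylene response factors, 1 was called, and it fell. ERF6, a stress-responsive factor, stood at -2.12, -1.85 and -1.42 in the scion, against 0.63, 0.56 and 0.26 in the rootstock. It fell by 2.28 ± 0.35 on the log2 scale (SE, adjusted p = 0.0329), the largest of all called decreases. Its relative ERF5 had -0.84, -0.99 and -1.03 in the scion and 0.12, 0.02 and -0.05 in the rootstock, a difference of -0.98 ± 0.30 (SE, adjusted p = 0.204). Over all probe sets, 14.1% lay below the rootstock on every scion array. Of 9 measured genes of this family, 1 fell, none rose and 6 lay below in this way, with a median of -1.0. The other 3 had a positive difference, and RAP2.6, another stress-responsive member, had 1.80, -1.72 and -0.72 in the scion, all above -2.74, -2.42 and -2.36 in the rootstock, a difference of 2.29 ± 0.91 (SE, adjusted p = 0.365). All 9 are named only by tables of the study. Ethylene synthesis was represented by AT1G12010, an ACC oxidase gene, which catalyses the last step of ethylene synthesis. It stood at 4.68, 3.10 and 3.13 in the scion and at -0.24, -0.17 and -0.78 in the rootstock, rose by 4.03 ± 0.47 (SE, adjusted p = 0.00987), and was called in 10 of the 12 fits that leave out an array. The leaf difference of this gene was -0.25.

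Protein breakdown was represented by 3 proteases and a protease inhibitor, all higher. CEP1, a cysteine endopeptidase known from the death of tapetum cells, stood at 5.58, 2.05 and 2.82 in the scion, against -0.57, -0.41 and -0.91 in the rootstock, and rose by 4.11 ± 0.71 (SE, adjusted p = 0.0456). The cysteine proteinase gene AT1G06260 stood at 3.96, 3.69 and 4.61 in the scion, against 1.38, 0.83 and 1.88 in the rootstock, and rose by 2.72 ± 0.29 (SE, adjusted p = 0.00869). AT1G72290, of the trypsin and protease inhibitor family, stood at 3.08, 1.53 and 3.61 in the scion and near 0 (-0.04, -0.04 and 0.02) in the rootstock, a rise of 2.76 ± 0.40 (SE, adjusted p = 0.0262). Leaf arrays of scion and rootstock differed in none of these by more than 0.33. The array order separates them, since scion replicate 1 was highest for CEP1 and scion replicate 3 for AT1G06260 and AT1G72290. SCPL43, a serine carboxypeptidase-like gene, rose by 1.13.

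Pollen coat genes made up 6 of the increases. GRP14, GRP17, GRP18 and GRP20 encode oleosin-like glycine-rich proteins, and EXL5 (AT1G75920) and EXL6 encode extracellular lipases, all of the pollen coat. GRP20 stood at 4.23, 3.51 and 4.92 in the scion and at 1.55, 1.1 and 2.70 in the rootstock, and rose by 2.43 ± 0.41 (SE, adjusted p = 0.0391). GRP14 stood at 1.92, 1.78 and 2.17 in the scion and at 0.18, 0.18 and 0.01 in the rootstock, and rose by 1.83 ± 0.20 (SE, adjusted p = 0.00987). In all 6 called members scion replicate 3 was the highest array, unlike most other increases, and the median difference of the 6 was 1.78 without scion replicate 1 and 1.80 with it. Only GRP14 kept its call without that array. GRP17 and GRP18 rose by 1.97 and 1.51, EXL6 by 1.76 and EXL5 by 1.57. GRP19 and EXL4, with 1.5 ± 0.35 (SE, adjusted p = 0.109) and 1.59 ± 0.38 (SE, adjusted p = 0.110), were not called. Of 11 measured pollen coat genes of 12 listed, 6 rose and none fell, against 0.237% and 0.158% of all probe sets. All 11 had a positive difference and 10 had no overlap between the groups, against 44.0% and 11.1%, with a median of 1.57. The tables of the study name 7 of the 11, and the 4 that the platform names had a median of 0.52. In leaves the list had a median of -0.05.

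Genes of earlier anther stages mostly had negative differences, and 1 of them passed the test. TDF1, a MYB factor needed for the early tapetum, stood at 0.22, 1.17 and 0.56 in the scion, against 1.93, 2.42 and 2.37 in the rootstock, and fell by 1.59 ± 0.25 (SE, adjusted p = 0.0348). AMS, a basic helix-loop-helix factor of the tapetum, had 2.22, 2.51 and 2.82 in the scion and 3.56, 3.42 and 3.20 in the rootstock, a difference of -0.88 ± 0.21 (SE, adjusted p = 0.121). All 9 measured anther regulators of 22 listed had a negative difference and 5 had no overlap, with a median of -0.42, and it was -0.41 over the 7 that the platform names. Of all probe sets, 44.0% had a positive difference and 14.1% lay below the rootstock without overlap. TDF1 alone passed the test. Of 8 measured meiosis genes 7 had a negative difference, none was called, and the median was -0.40 (-0.24 over the 6 that the platform names). MS5, needed to leave meiosis, had -1.16 ± 0.25 (SE, adjusted p = 0.0851), and SDS, a meiotic cyclin, -0.51 ± 0.17 (SE, adjusted p = 0.259).

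The tapetum and exine genes were divided. Of 12 measured, 7 were lower on every scion array than on every rootstock array, and 2 were higher. Over all probe sets these shares were 14.1% and 11.1%. The polyketide synthase gene LAP5 had 1.03, 1.65 and 1.73 in the scion and 2.66, 2.38 and 2.32 in the rootstock, a difference of -0.99 ± 0.65 (SE, adjusted p = 0.677). DRL1, a reductase of sporopollenin synthesis, had -1.12 ± 0.53 (SE, adjusted p = 0.485). Neither gene overlapped between the groups, and its SE also holds the spread of the leaf arrays. SHT, a tapetum transferase that makes spermidine conjugates of the pollen wall, had 3.23, 3.03 and 3.76 in the scion and 2.67, 2.52 and 2.39 in the rootstock, a difference of 0.81 ± 0.18 (SE, adjusted p = 0.0950). None of the 12 was called, and the sign of the list depends on which names are used: the median was -0.68 over all 12 and 0.57 over the 3 that the platform names, against 9 named by the study's tables.  In leaves the median difference of the list was 1.51. Genes of mature pollen, such as ANX1 and ANX2, receptor kinases of the pollen tube, did not stand apart, with a median of 0.05 over 10 measured genes and differences of -0.27 to 0.52. In whole buds, fewer cells of a type and less RNA per cell cannot be told apart.

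**Figure D4:**
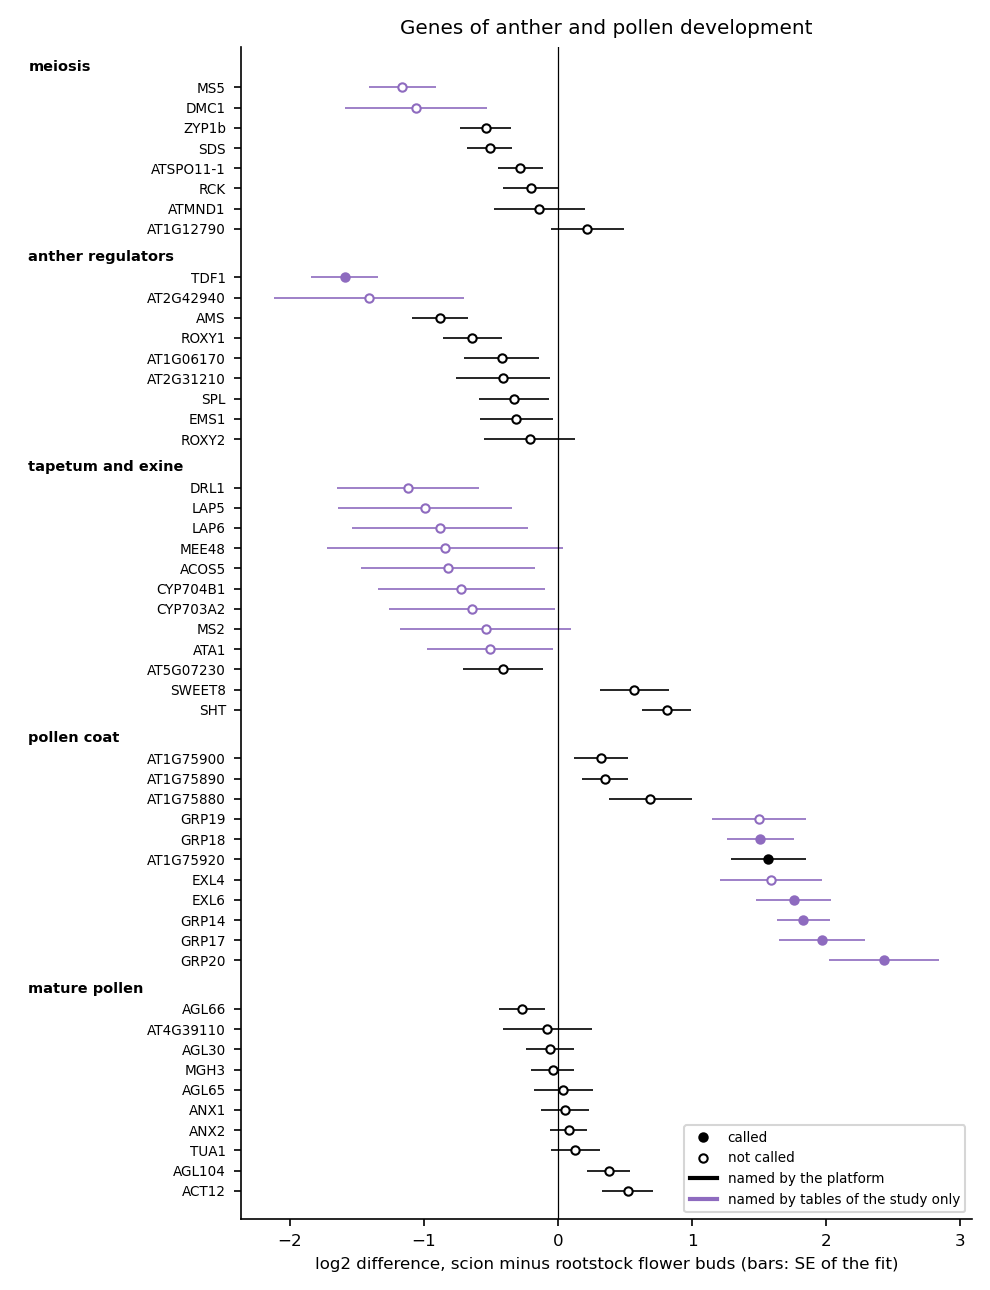
Log2 difference between scion and rootstock flower buds (x axis, points, with the SE of the fit as bars) for the measured genes of 5 lists ordered from meiosis to mature pollen. Filled points passed the test, and the pollen coat genes lie right of 0, the anther regulators left of 0 and the mature pollen genes around 0.

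Genes of core histones, tubulins and microtubule scaffolds had mostly negative differences, and none passed the test. Over all probe sets, 44.0% had a positive difference and 14.1% lay below the rootstock without overlap. All 5 measured core histone genes were lower on every scion array than on every rootstock array, with differences of -0.96 to -0.42. HTB1, a histone H2B gene, had 0.98, 1.40 and 1.1 in the scion and 1.60, 1.78 and 2.08 in the rootstock, a difference of -0.66 ± 0.19 (SE, adjusted p = 0.192). HTR12, the histone H3 of centromeres, had 0.82, 1.49 and 1.26 in the scion and 2.17, 2.06 and 2.09 in the rootstock, a difference of -0.92 ± 0.32 (SE, adjusted p = 0.280). Tubulin genes had a median of -0.28 with 6 of 7 negative, and the IQD genes, which encode calmodulin-binding scaffolds at microtubules, a median of -0.32 with 14 of 15 negative. None of these genes was called, and the platform names all of them. IQD18 had -0.60 ± 0.17 (SE, adjusted p = 0.186). Scion replicate 1 had the lowest list median of the scion arrays in all 3 lists (0.82 for the histones, against 1.40 and 1.1 on the other scion arrays). On the rootstock arrays the histone median was 1.60 to 2.08.

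Regulators of the inflorescence apex moved in both directions. TFL1, which keeps the apex indeterminate and delays flowering, stood at 1.60, 2.01 and 1.37 in the scion, against -0.43, -0.33 and 0.04 in the rootstock, and rose by 1.90 ± 0.31 (SE, adjusted p = 0.0348). FTM1, a desaturase-like gene active in the meristem at the floral transition, stood at -0.21, -0.09 and 0.07 in the scion, against 2.12, 2.15 and 1.58 in the rootstock. It fell by 2.03 ± 0.19 on the log2 scale (SE, adjusted p = 0.00824), with the smallest p of all probe sets, and its leaf difference was 0.04. SPL10, of the SQUAMOSA promoter binding family, which advances phase change, stood at 0.49, 0.80 and 0.68 in the scion and at 1.88, 1.87 and 1.79 in the rootstock, and fell by 1.19 ± 0.13 (SE, adjusted p = 0.00869). Its relative SPL15 had -1.31 ± 0.31 (SE, adjusted p = 0.111). LSH5, of a family of organ boundary proteins, fell by 1.22 ± 0.12 (SE, adjusted p = 0.00824).

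Some MADS box genes had positive differences without a call. AGL20 (SOC1) had 1.05 ± 0.27 (SE, adjusted p = 0.136) and AGL71, its close relative, 1.04 ± 0.20 (SE, adjusted p = 0.0570), with 0.88, 0.49 and 0.34 in the scion and -0.35, -0.45 and -0.63 in the rootstock. The whole MADS box family did not share this, with a median of -0.05 over 50 probe sets, 21 of them positive. PTL, a trihelix factor that sets petal borders, had a difference of 0.80 ± 0.14 (SE, adjusted p = 0.0481), which passed the p threshold and not the 2-fold threshold. ALC, a factor of fruit opening, had 1.22 ± 0.23 (SE, adjusted p = 0.0548). Among hormone genes, LOG1, which releases active cytokinin, rose by 1.70, ARL, a promoter of organ growth, by 2.15, and SMAX1 (AT5G57710), a repressor of karrikin signalling, by 1.26. Rootstock leaves exceeded rootstock flower buds by 2.33, 2.49 and 2.31 in these genes. ARL stood at 0.46, 0.12 and -0.44 in the scion and at -1.83, -2.12 and -2.37 in the rootstock.

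Metabolic enzymes and transporters made up 13 of the increases. MGL, a methionine gamma-lyase that breaks methionine down, stood at 1.56, 0.91 and 0.27 in the scion, against -1.25, -1.30 and -1.77 in the rootstock, and rose by 2.35 ± 0.28 (SE, adjusted p = 0.0105). C/VIF1, an inhibitor of invertases, stood at 1.26, -1.28 and -0.85 in the scion, against -3.41, -3.32 and -3.78 in the rootstock, and rose by 3.22 ± 0.58 (SE, adjusted p = 0.0481). UGT74F2, a salicylic acid glucosyltransferase, stood at 0.10, -1.68 and -2.03 in the scion and at -4.11, -3.94 and -4.16 in the rootstock, and rose by 2.87 ± 0.51 (SE, adjusted p = 0.0481). In the pair C/VIF1 and UGT74F2 rootstock leaves exceeded rootstock flower buds by 3.66 and 4.27, and without scion replicate 1 the differences were 2.44 (adjusted p = 0.0814) and 2.22 (adjusted p = 0.0990). The other enzymes were FMO GS-OX2, a glucosinolate S-oxygenase (1.87), the short-chain dehydrogenase gene AT3G04000 (1.81), the patatin-like lipase gene PLP4 (1.46) and a probe set that matches several genes (1.47), which the study describes as an epoxide hydrolase.

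Of the transporters, OCT1, an organic cation carrier, was the most even. It stood at 1.76, 1.74 and 2.09 in the scion and at 0.28, 0.15 and 0.44 in the rootstock, and rose by 1.57 ± 0.17 (SE, adjusted p = 0.00923). The sterol-binding ORP4C rose by 1.96, YSL3, a carrier of metal-nicotianamine complexes, by 1.70, the ABC transporter ABCG21 by 1.66, HA3, a proton pump of the plasma membrane, by 1.59, and AT1G25530, of the lysine and histidine carriers, by 1.35. Nitrate and peptide transporters were mostly higher without a call. Of 15 measured, 13 had a positive difference and 8 had no overlap on the upper side, against 44.0% and 11.1% of all probe sets. The median was 0.87 (0.34 over the 12 that the platform names), and NRT1:2, a nitrate carrier that also moves ABA, had 1.27 ± 0.26 (SE, adjusted p = 0.0724). SWEET sugar exporters were mixed, with 10 of 17 positive and a median of 0.07. SWEET7 had 1.16, 2.13 and 2.24 in the scion and 3.65, 3.29 and 2.70 in the rootstock, a difference of -1.36 ± 0.31 (SE, adjusted p = 0.0975). Of 56 measured UGT glycosyltransferase genes UGT74F2 alone rose and none fell, with a median of 0.12.

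Most transcripts of the plastid genome had positive differences, and 2 passed the test. Of 69 plastid probe sets 62 had a positive difference, with a median of 0.68, while on each nuclear chromosome 41.4% to 43.2% of the probe sets had one, with a median of -0.04. The gene ndhE, for a subunit of the NADH dehydrogenase-like complex, stood at -0.75, -0.87 and -0.78 in the scion, against -2.41, -3.07 and -2.41 in the rootstock, and rose by 1.83 ± 0.23 (SE, adjusted p = 0.0138). The gene petL, for a subunit of the cytochrome b6f complex, stood at -0.17, -0.39 and -0.63 in the scion, against -1.97, -2.18 and -1.84 in the rootstock, and rose by 1.60 ± 0.24 (SE, adjusted p = 0.0296). Both are leaf-high, with rootstock leaves above rootstock flower buds by 3.89 for ndhE and 3.27 for petL. Over 43 plastid photosynthesis genes the median was -0.66, -0.61 and -0.53 on the scion arrays, so replicate 1 did not stand apart. On the rootstock arrays the same median was -1.61, -1.72 and -0.57, so rootstock replicate 3 lay among the scion arrays. The photosystem II genes psbB and psbT had 1.1 ± 0.21 (SE, adjusted p = 0.0604) and 1.35 ± 0.28 (SE, adjusted p = 0.0790). The 19 plastid genes of transcription and translation had a median of 0.47 with 17 positive, and rpl20, a ribosomal protein gene, had -0.82, -0.37 and -0.43 in the scion and -2.28, -2.31 and -1.32 in the rootstock. Mitochondrial genes differed less, with 17 of 23 positive and a median of 0.13.

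**Figure D5:**
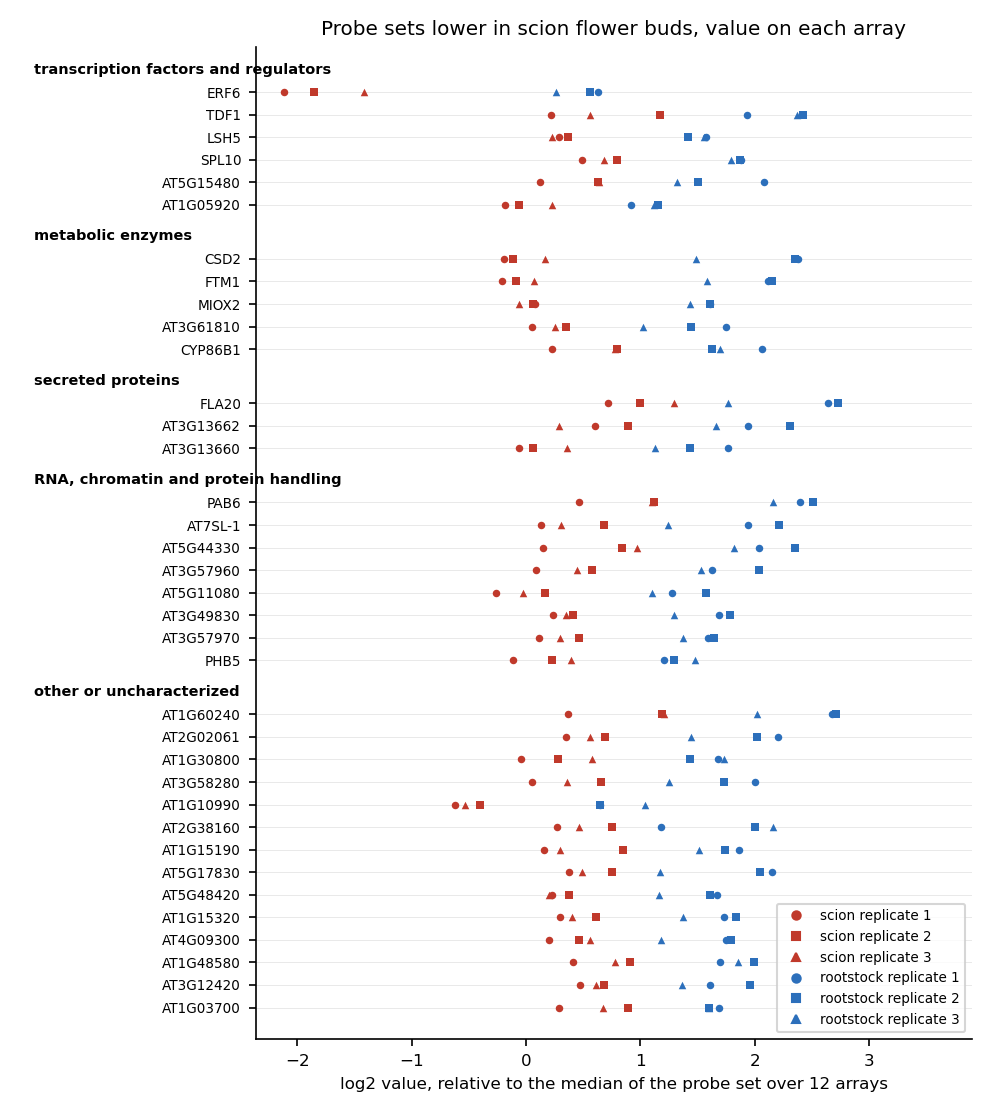
The 36 probe sets called as lower in scion flower buds, grouped by function, with the relative log2 value (x axis) of each of the 3 scion arrays (red) and the 3 rootstock arrays (blue). Red lies left of blue in each row, with no overlap.

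The remaining decreases included enzymes, RNA-related genes and many genes with no described product. CSD2, the copper/zinc superoxide dismutase of plastids, stood at -0.19, -0.11 and 0.17 in the scion, against 2.38, 2.35 and 1.49 in the rootstock, and fell by 2.12 ± 0.34 (SE, adjusted p = 0.0348). Of 4 measured copper genes it alone was called, and the copper chaperone gene CCH had 1.56 ± 0.30 (SE, adjusted p = 0.0604). MIOX2, a myo-inositol oxygenase that feeds wall sugars, stood at 0.08, 0.06 and -0.06 in the scion, against 1.61, 1.61 and 1.43 in the rootstock, and fell by 1.53 ± 0.27 (SE, adjusted p = 0.0481). In leaves its difference had the opposite sign, 1.77 (adjusted p = 0.0581), and the test of buds against leaves gave an adjusted p of 0.0812. CYP86B1, a fatty acid hydroxylase of suberin, fell by 1.19, the glucanase-like AT3G61810 by 1.19 and the arabinogalactan protein gene FLA20 by 1.38.

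Among genes of RNA and protein handling, PAB6, a poly(A)-binding protein, stood at 0.46, 1.12 and 1.1 in the scion, against 2.40, 2.51 and 2.16 in the rootstock, and fell by 1.46 ± 0.25 (SE, adjusted p = 0.0441). AT7SL-1, the RNA of the signal recognition particle, stood at 0.13, 0.68 and 0.31 in the scion and at 1.94, 2.21 and 1.24 in the rootstock, and fell by 1.42 ± 0.26 (SE, adjusted p = 0.0497). This probe set carries the suffix for shared sequence, so its signal may hold related transcripts. AT5G44330, a tetratricopeptide repeat gene, stood at 0.15, 0.84 and 0.97 in the scion, against 2.04, 2.35 and 1.82 in the rootstock, and fell by 1.42 ± 0.23 (SE, adjusted p = 0.0348). The helicase-related AT3G49830, the ubiquitin family gene AT5G11080 and the prohibitin gene PHB5 fell by 1.26, 1.35 and 1.15. AT1G60240, which the study's tables relate to apical meristem formation, stood at 0.37, 1.19 and 1.21 in the scion, against 2.68, 2.71 and 2.02 in the rootstock, and fell by 1.55 ± 0.28 (SE, adjusted p = 0.0481). The zinc finger gene AT5G15480 and the regulator AT1G05920 fell by 1.17 and 1.07. The other 13 decreases, of 1.01 to 1.35, lay in genes with no described product or only a loose one, among them AT1G10990, at -0.62, -0.40 and -0.53 in the scion and 0.65, 0.65 and 1.04 in the rootstock.

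Several called genes are neighbours on a chromosome in the TAIR10.1 annotation, with no protein-coding gene between them. GRP14, GRP18 and GRP17 follow each other on chromosome 5, and EXL5 and EXL6 on chromosome 1, where AT1G23570 and AT1G23580, with no described product, also lie side by side and rose by 2.39 and 1.02. AT1G23570 stood at 4.00, 3.29 and 4.21 in the scion and at 1.38, 0.83 and 2.13 in the rootstock, with replicate 3 highest in the scion. On chromosome 3 the dirigent-like genes AT3G13660 and AT3G13662 fell by 1.32 and 1.38, and AT3G57960 and AT3G57970, which carry an ENT domain, by 1.36 and 1.24. AT3G13662 stood at 0.60, 0.89 and 0.29 in the scion, against 1.94, 2.31 and 1.66 in the rootstock. Such neighbours are often near copies of each other, and an array cannot always tell their transcripts apart. The further increases were ENODL6, an early nodulin-like protein (1.87), and AT5G50360 (1.84), AT3G48510 (1.83), AT1G26710 (1.64) and AT2G07708 (1.08), with no described product. The probe set of AT2G07708 also carries the suffix for shared sequence, so its signal may hold related transcripts.

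Leaves of the same kind of grafts differed in 6 increases (0.0264%) and 6 decreases (0.0264%), and none of the 90 flower bud calls was among them. Over the 54 increases in flower buds the median difference was 1.83 in flower buds and 0.09 in leaves, and over the 36 decreases it was -1.29 and 0.00. The probe sets were selected by their flower bud difference, so these medians do not show that the changes are particular to buds. The difference between the organs was tested for every probe set, and none passed an adjusted p of 0.05. Of all the called genes, 86 of 90 had an unadjusted p of at most 0.05 there, which carries no weight because they were selected by their flower bud difference in the same fit. HB21 and LEA7 had a positive difference in leaves too, of 2.34 (adjusted p = 0.216) and 2.98 (adjusted p = 0.124). AT1G12010, GRP14 and FTM1 had leaf differences of -0.25, 0.01 and 0.04.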

How the data were processed

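Total RNA of flower buds and leaves was hybridized to Affymetrix ATH1 arrays, 1 sample per array. The authors computed log2 values by Robust Multi-array Average in GeneSpring, and in the deposited log2 values the median of every probe set over the 12 arrays is 0. This centring, shown by the values and not stated, removes expression levels, so no filter on dim probe sets or other background correction could be applied. The number of arrays limits the precision.

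The 64 control probe sets were left out of 22810. The platform annotation gives 13513 of the others a single gene and 503 several, 469 were named only through tables of the study, 16 of those tables' probe sets have several loci, and 8245 stayed unnamed. Of 469 probe sets named in both sources, 448 had the same locus. Names were updated with the RefSeq annotation of TAIR10.1.

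A mean for each of the 4 groups was fitted in limma 3.58.1 (R 4.3.3) with lmFit, contrasts.fit and eBayes, and checked on simulated data. Tables and figures were made with pandas 2.3.3 and matplotlib 3.10.9. P-values were adjusted over all probe sets (Benjamini-Hochberg), with thresholds of 0.05 and 2-fold. Gene lists are described by counts and medians, with no test. Values on every array are given for the 10 largest called increases and decreases and, in lists the results turn on, for up to 4 called and 2 other members, and further genes were chosen with their values known. The comparison and the lists were chosen with earlier results of these data known. Alternatives were other sets of arrays or probe sets, a replicate block, scaling, prior, array weights, fold thresholds and the methods' analysis of variance.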

Additional observations from a re-analysis of the deposited data

How the results depend on the processing

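With 3 arrays per group and no expression levels, dim and bright probe sets could not be told apart, and alternatives in background correction or a filter on dim probe sets could not be run. Against 54 increases and 36 decreases in flower buds, array weights gave 479 and 160, the methods' analysis of variance 421 and 145, and single-gene probe sets of the platform 25 and 24. That analysis of variance tests any difference among the 4 groups, including flower buds against leaves, and gives both organs the same p. Its counts are therefore not calls of scion against rootstock alone. The robust prior gave 42 and 29, with 71 of the 90 calls shared, and the flower bud arrays alone 56 and 38, with 51 shared. In leaves, against 6 and 6, array weights gave 115 and 111, the analysis of variance 152 and 145, single-gene probe sets 2 and 4, and removal of leaf-high probe sets 2 and 2. The difference between the organs passed the test in 467 probe sets with array weights, against 0. Leaving out 1 array at a time gave 0 to 219 increases and 0 to 67 decreases in flower buds, 2 to 41 and 5 to 15 in leaves, and 0 to 34 probe sets that differed between the organs.

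Scions were grafted back on their own plants, but no source ties a number to a plant. The numbers were therefore not taken to pair the flower bud arrays. Deviations of same-numbered scion and rootstock arrays correlated at 0.0234, 0.0741 and 0.2007, and those of different-numbered ones at -0.1546 to 0.0798. Such correlations, over 3 arrays per group, cannot decide whether the arrays are paired. With a replicate block over all arrays, 93 increases and 38 decreases were called, with 78 of the 90 calls among them, and with a replicate block within flower buds 110 and 45, with 60 among them.

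Over single-gene probe sets only, list medians were 0.52 for the pollen coat, 0.57 for tapetum and exine, 0.67 for LEA genes, 0.67 for drought targets, 0.01 for homeobox genes, 0.39 for NAC genes and 0.34 for nitrate and peptide transporters. Array weights gave 0.10 for mature pollen and 0.70 for the transporters, and without leaf-high probe sets the LEA genes had 1.34 and the transporters 0.36. Leaving out 1 array at a time, medians ranged over 1.36 to 2.38 for LEA genes, 1.51 to 2.66 for drought targets and 0.62 to 1.08 for the transporters. No result changed its direction under the alternatives run other than the tapetum and exine median. The cause of these changes was not tested.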
